A study of Homo sapiens with 2 samples.

Results

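Binding of OTX2 was examined at 10 genes of the rhombic lip and of unipolar brush cells in D283 cells, out of 19881 protein-coding genes. The genes were LMX1A, LMX1B, WLS, OLIG3, BARHL1, BARHL2, EOMES, TBR1, CALB2 and PTF1A. For each gene, the OTX2 peaks that overlapped its GENCODE gene record in GRCh38 extended by 50 kb on each side were taken. These windows held 108 of the 137412 peaks in the list, each in the window of a single member.

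D283 is an established medulloblastoma cell line with features of both Group 3 and Group 4 tumors. The cells were grown as tumorspheres without serum and without knockdown of OTX2. For the ChIP the paper names OTX2-high tumorspheres, its term for scramble siRNA controls. Whether the cells used here received scramble siRNA is not stated there. Crosslinked chromatin was precipitated with an Abcam antibody to OTX2 to give 1 ChIP library, which was called against 1 input library of the same cells. Neither library had a replicate, so no value below carries a replicate error, no test between conditions was possible, and values of the members are set beside those of all protein-coding genes as a description.

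The rhombic lip is the dorsal edge of the hindbrain that gives rise to the glutamatergic neurons of the cerebellum, among them granule cells, neurons of the cerebellar nuclei and unipolar brush cells. Unipolar brush cells are excitatory interneurons of the granular layer, recognised by EOMES and, in one subtype, by calretinin, the product of CALB2. OTX2 is a homeodomain transcription factor that binds TAATCC-like sequences and is expressed in the developing cerebellum and in Group 3 and Group 4 medulloblastoma. PTF1A stands apart from the other members, since it specifies GABAergic neurons of the neighbouring ventricular zone, and CALB2 encodes a calcium-binding protein and not a regulator. The peak list measures where OTX2 lies on DNA and not which genes are expressed, so the identity of the cells could not be checked against markers here.

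For each peak the deposited list gave the pileup, which is the scaled fragment coverage at the summit, and the fold enrichment, which is the pileup over the local input with 1 added to each. All pileups were whole multiples of 0.735 (within 0.02 of a step), and fragment counts below take a step as a single ChIP fragment. The step is 2.0 times the ratio of kept input to kept ChIP fragments, 0.368, and the origin of this factor was not tested, so the fragment counts and their intervals rest on that reading, whereas pileups and fold enrichments do not. Across the members, pileups ran from 13.23 to 219.85 and fold enrichments from 2.03 to 40.8. Distances are from the summit to the TSS, which was set at the 5′ end of each GENCODE record. They are positive in the direction of transcription.

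OTX2 peaks were present around 9 of the 10 genes, and the exception was CALB2. Among all protein-coding genes, 94.1% had a peak in the same kind of window, so the presence of a peak did not set the members apart. The counts ran from 26 peaks at WLS and 25 at TBR1 through 17 at LMX1A and 11 at EOMES to 8 at LMX1B, 8 at BARHL1, 7 at OLIG3, 4 at PTF1A, 2 at BARHL2 and 0 at CALB2. Since windows differed in length, from 102 kb at PTF1A to 255 kb at LMX1A, the counts were also expressed per 100 kb. TBR1 then had 22.8 peaks per 100 kb, WLS 11.1 and EOMES 10.3, whereas BARHL2 had 1.89. The median over the members was 6.76 peaks per 100 kb, against 5.12 over all genes (quartiles 2.73 and 7.89), and 6 of 10 members lay above the median of all genes. The members were therefore spread over the whole range of densities, with TBR1 alone at its far end. That place counts weak peaks too, since TBR1 kept 9 of its 25 peaks at a fold enrichment of at least 5, and WLS 14 of 26. Densities over all genes at that cutoff were not set beside these counts.

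**Figure D1:**
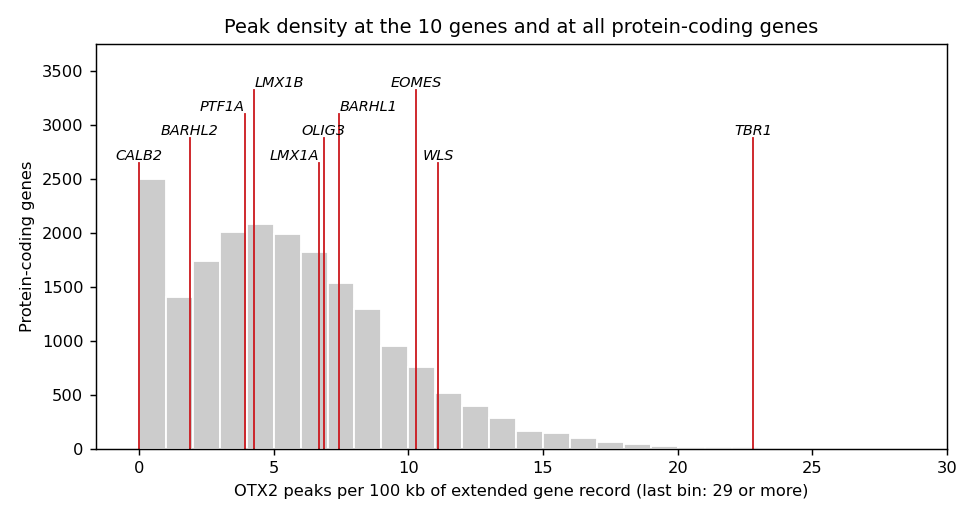
Histogram of OTX2 peaks per 100 kb of extended gene record (x axis) over 19881 protein-coding genes (y axis, number of genes), with a red line at the value of each of the 10 genes; line heights only separate the names. TBR1 lies at 22.8, WLS at 11.1 and EOMES at 10.3, while CALB2 lies at 0.

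The window near the TSS reached 5 kb upstream and 2 kb downstream of it. A peak in it was found at EOMES, TBR1, LMX1B, BARHL2 and WLS, 5 of 10 members, and at 57.2% of all genes. Most of these peaks near the TSS were low. Their highest fold enrichment was 2.85 at EOMES, 2.85 at LMX1B, 4.5 at WLS and 4.97 at BARHL2, and it was 24.2 at TBR1. TBR1 was thus the single member with a peak of fold enrichment 5 or more in this window, which 38.5% of all genes had. The nearest summit lay within 1 kb of the TSS at EOMES, TBR1, BARHL2 and WLS, 4 of 10 members, and at 43.9% of all genes.

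The whole window, with the part near the TSS included, was counted next. A peak of fold enrichment 10 or more was present somewhere in the window of 8 of 10 members, all but BARHL1 and CALB2, and in that of 70.0% of all genes. Near the TSS, a peak of fold enrichment 10 or more was found at TBR1 only among the members, and at 13.6% of all genes. The summit of the strongest peak, the one of highest fold enrichment, lay more than 5 kb from the TSS at 8 of 9 members with a peak, with TBR1 as the exception. The same was the case for 89.2% of all genes with a peak, since the windows reach far beyond the TSS. The strongest summit lay outside the gene record at 8 of 9 members, with LMX1A as the exception, and at 73.1% of all genes with a peak. Of the 108 summits, 32 lay upstream, 41 inside and 35 downstream of the gene record, and 12 lay within 5 kb, 26 within 10 kb and 84 within 50 kb of the TSS.

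**Figure D2:**
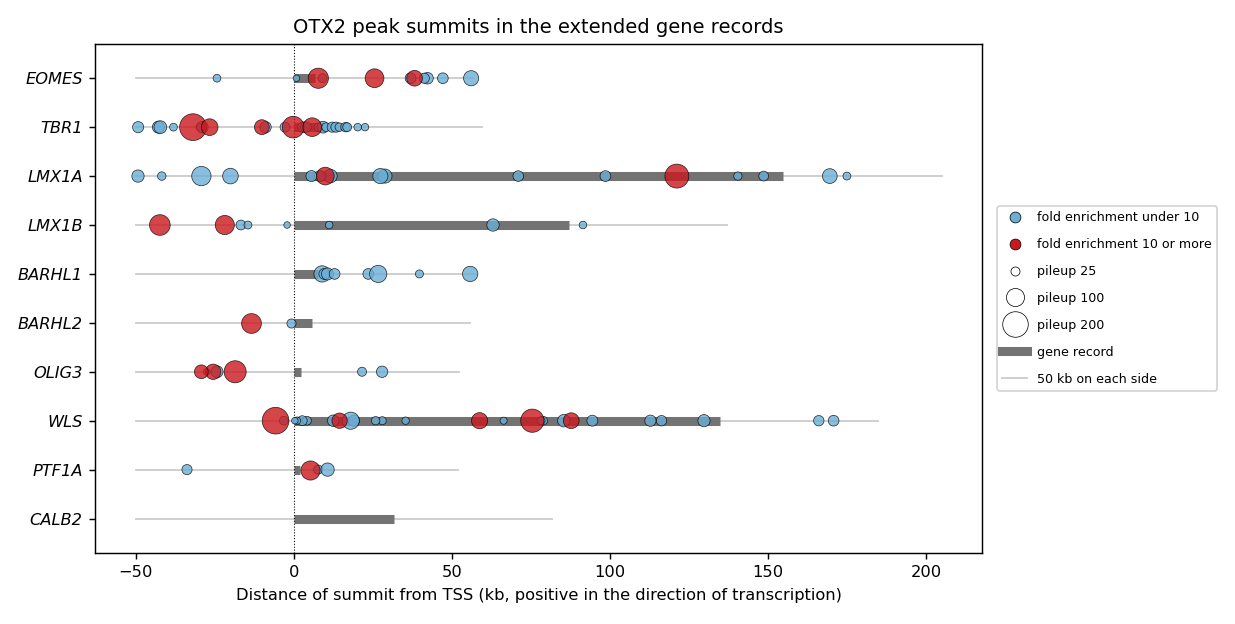
Position of the 108 OTX2 peak summits relative to the TSS (x axis, kb) in the extended record of each gene (rows), with the gene record as a dark bar, circle area proportional to the pileup and red for a fold enrichment of 10 or more. Red circles are found at 8 genes, those at LMX1B and OLIG3 all lie upstream of the TSS, and CALB2 has no circle.

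Pooled over the members, the 108 peaks had a median pileup of 36.8 (39.0 over all peaks on chromosomes). Their median fold enrichment was 5.39 (6.1) and their median length 442 bp (440 bp). The pooled values are weighted towards WLS with 26 peaks and TBR1 with 25. By gene, the median fold enrichment ran from 3.98 at TBR1 to 11.0 at BARHL2, which had 2 peaks. A fold enrichment of 5 or more was reached by 52.8% of the member peaks and 62.9% of all peaks. A fold enrichment of 10 or more was reached by 22 of the 108 peaks (20.4%) and by 26.4% of all peaks. Peaks of 1500 bp or more were 6 of the 108 (5.56%) and 1.92% of all peaks, and 5 of these 6 belonged to TBR1 and 1 to WLS. The local input, worked out from the 2 deposited values of a peak, had a median of 5.56 at the members and 5.0 over all peaks. It lay at its floor of 3.99 for 13.9% of member peaks and 26.5% of all peaks, and the part of this difference in the lower fold enrichment was not tested.

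LMX1A and LMX1B encode LIM homeodomain factors. LMX1A marks the roof plate and rhombic lip and is needed for the roof plate to form, and LMX1B acts beside it in the dorsal hindbrain. LMX1A (chromosome 1, 165201867 to 165356715, minus strand) had 17 peaks, of which 4 lay upstream, 11 inside and 2 downstream. None lay in the window around the TSS, and the nearest summit was 5595 bp downstream of it, in an intron, with a pileup of 37.5. The highest fold enrichment was 14.1, at an intronic peak 9976 bp downstream of the TSS (chr1:165346284-165347303) with a pileup of 96.32. A second intronic peak 121140 bp downstream had the highest pileup of the gene, 175.73, but a fold enrichment of 13.6, as its local input was 12.0. The order of the 2 peaks therefore changed between pileup and fold enrichment. Upstream, pileups of 75.0 and 114.7 were found 20021 bp and 29210 bp from the TSS, with fold enrichments of 9.13 and 9.46.

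LMX1B (chromosome 9, 126613928 to 126701032, plus strand) had 8 peaks, 5 of them upstream. Its strongest peak lay 42342 bp upstream (chr9:126571385-126571838), with a pileup of 130.88 and a fold enrichment of 24.2. The next lay 21810 bp upstream, with a pileup of 112.5 and a fold enrichment of 18.9. At the TSS itself the signal was low, since the nearest summit, 2112 bp upstream, had a pileup of 13.23, which is 18 fragments, and a fold enrichment of 2.85. Inside the gene, 1 of the 2 intronic peaks reached a fold enrichment of 9.64, at 63011 bp. LMX1B and LMX1A thus had their strongest peaks on opposite sides of the TSS.

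WLS encodes the carrier that takes Wnt ligands to the cell surface and marks the interior of the rhombic lip. WLS (chromosome 1, 68098473 to 68233120, minus strand) had the strongest peak of all members. Its summit lay 5752 bp upstream of the TSS (chr1:68238346-68240297), with a pileup of 218.38, a fold enrichment of 40.8 and a length of 1952 bp. The pileup equals 297 fragments (exact Poisson 95% interval 264 to 333, counting error only), and 99.8% of all peaks had a lower fold enrichment. This peak began 226 bp beyond the edge of the window around the TSS and was not counted there. The 3 peaks within that window had fold enrichments of 4.5, 2.37 and 3.26.

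The other strong peaks of WLS were intronic. They lay 14488, 58768, 75433 and 87740 bp downstream of the TSS, with fold enrichments of 12.2, 11.6, 16.6 and 12.6, and the pileup of the third was 165.44. In all, 22 of the 26 peaks had their summit inside the gene. For 6 of the 26 peaks the nearest protein-coding TSS was that of DIRAS3, a small GTPase gene, and not that of WLS, and none of those 6 reached a fold enrichment of 10.

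**Figure D3:**
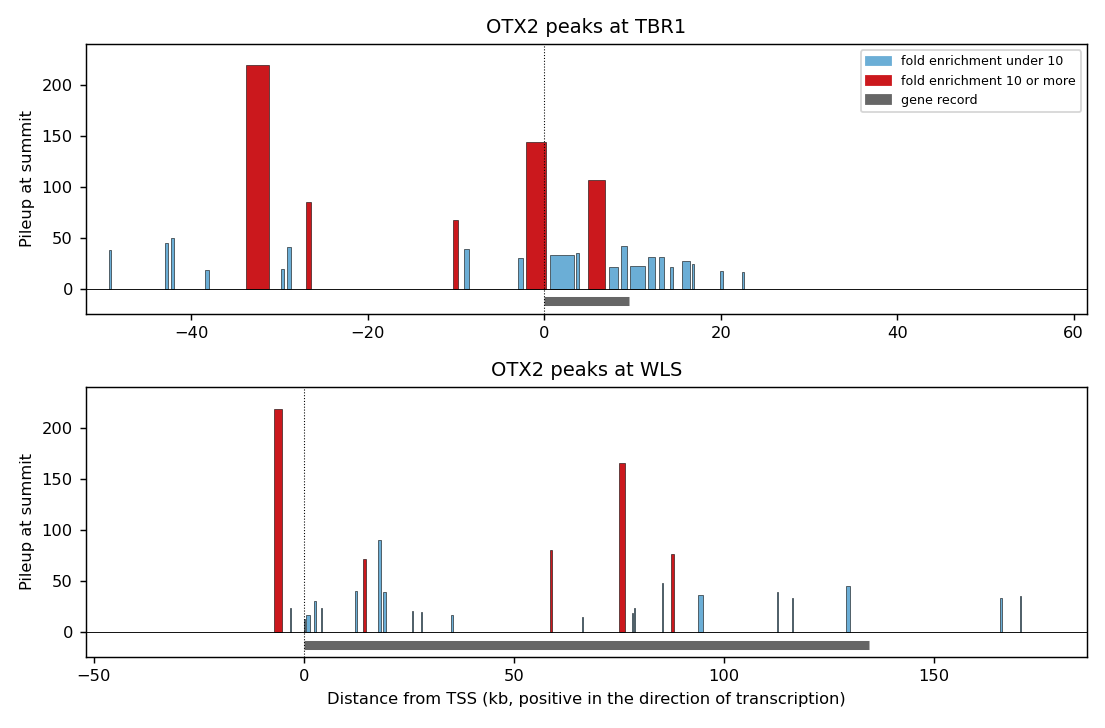
OTX2 peaks at TBR1 (upper panel) and WLS (lower panel) by distance from the TSS (x axis, kb), each bar as wide as the peak and as high as its pileup at the summit (y axis), with the gene record in grey and red for a fold enrichment of 10 or more. At TBR1 wide peaks stand on and beside the TSS, whereas at WLS the highest peak, with a pileup of 218.38, stands 5752 bp upstream.

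OLIG3, BARHL1 and BARHL2 encode transcription factors of the dorsal progenitors and of the neurons that leave the rhombic lip. OLIG3 is a basic helix-loop-helix factor of progenitors, and BARHL1 and BARHL2 are homeodomain factors of migrating neurons downstream of ATOH1. OLIG3 (chromosome 6, 137492199 to 137494394, minus strand) had 7 peaks, none inside its short gene record. The strongest was also the nearest to the TSS, 18538 bp upstream (chr6:137512303-137513487), with a fold enrichment of 30.1 and a pileup of 149.26, which is 203 fragments (exact Poisson 95% interval 176 to 233). It was the first of 5 upstream peaks between 18538 bp and 29231 bp from the TSS, of which the ones at 25476 bp and 29231 bp had fold enrichments of 12.2 and 11.6. The other 2 upstream peaks, at 24254 bp and 27504 bp, had fold enrichments of 4.93 and 2.99, and the 2 downstream peaks had 3.93 and 8.16.

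BARHL1 (chromosome 9, 132582606 to 132590252, plus strand) had 8 peaks, all downstream of the gene record. The nearest summit lay 8964 bp from the TSS with a pileup of 81.62 and a fold enrichment of 9.18. The strongest lay 26705 bp from the TSS (chr9:132608810-132609839), with a pileup of 91.17 and a fold enrichment of 9.22, so the 2 values were close to each other. For this peak too the nearest protein-coding TSS was that of BARHL1. Of the 8 summits, 6 lay within the neighbouring gene DDX31, which encodes an RNA helicase and runs in the opposite direction. No BARHL1 peak reached a fold enrichment of 10.

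BARHL2 (chromosome 1, 90711539 to 90717302, minus strand) had 2 peaks, both upstream. The nearest lay 963 bp upstream with a pileup of 25.73 and a fold enrichment of 4.97. The other lay 13607 bp upstream (chr1:90730090-90731122) with a pileup of 119.85 and a fold enrichment of 17.1. BARHL2 therefore had fewer peaks than its paralog, and a stronger one.

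EOMES and TBR1 encode related T-box factors of glutamatergic neurons. EOMES, also called TBR2, marks unipolar brush cells, and TBR1 marks neurons of the cerebellar nuclei. EOMES (chromosome 3, 27715949 to 27722711, minus strand) had 11 peaks, 9 of which lay downstream of the gene record. The nearest summit was in an exon, 847 bp downstream of the TSS, with a pileup of 13.23 and a fold enrichment of 2.85. The strongest peak lay 25539 bp downstream of the TSS (chr3:27696895-27697422), outside any protein-coding gene, with a pileup of 108.09 and a fold enrichment of 21.9. Further downstream peaks at 7764 bp and 38195 bp had fold enrichments of 14.0 and 14.1, and the one at 7764 bp had the highest pileup, 125.0. All 11 peaks had EOMES as the nearest protein-coding TSS.

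TBR1 (chromosome 2, 161416297 to 161425870, plus strand) was the most densely bound member. Its 25 peaks covered 19.6% of the window (21422 bp), against a median of 2.59% over all genes, and 99.9% of genes had a lower peak density. TBR1 ranked 25 of 19881 genes in density, and among the genes above it was PSMD14, whose record ends upstream of TBR1 and which shares peaks with it. OTX2 itself, named here after its value was seen, ranked 19 with 23.1 peaks per 100 kb. A run of 15 peaks in the TBR1 window had gaps of at most 5 kb between neighbouring summits. It reached from 2758 bp upstream to 22536 bp downstream of the TBR1 TSS, and so into a neighbouring gene, SLC4A10.

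The strongest TBR1 peak lay on the TSS. It spanned 2370 bp (chr2:161414172-161416541) and reached its summit at 168 bp before the TSS. At the summit it had a fold enrichment of 24.2 and a pileup of 144.11, which is 196 fragments (exact Poisson 95% interval 170 to 225). The highest pileup, 219.85, lay 31864 bp upstream in an exon of the proteasome subunit gene PSMD14, where a local input of 13.0 brought the fold enrichment to 15.8. Other peaks of fold enrichment 10 or more lay 26605 bp and 10089 bp upstream (15.4 and 10.1) and 5843 bp downstream (15.4). The remaining peaks were lower, and 16 of the 25 had a fold enrichment under 5. For 14 of the 25 peaks the nearest protein-coding TSS was that of TBR1. For the other 11 it was that of SLC4A10, a bicarbonate transporter gene that starts 8035 bp downstream of the TBR1 TSS. All of those 11 peaks lay in the run described above.

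CALB2 (chromosome 16, 71358713 to 71390436, plus strand) had no peak in its window of 132 kb. The nearest peak upstream was 99.9 kb from the gene record, with a fold enrichment of 8.61 and a pileup of 41.91, and the nearest downstream was 175 kb from it, with a fold enrichment of 4.62 and a pileup of 22.06. Their nearest protein-coding TSSs were those of HYDIN and ZNF19. Chromosome 16 had 3.3 peaks per 100 kb, fewer than the 4.38 to 5.49 of the chromosomes of the other members. A q-value cutoff of 0.05 was used in peak calling, so weaker binding at CALB2 was not measured by the list.

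PTF1A encodes a basic helix-loop-helix factor of GABAergic progenitors. PTF1A (chromosome 10, 23192312 to 23194245, plus strand) had 4 peaks, all outside its gene record. The strongest was also the nearest to the TSS, 5057 bp downstream (chr10:23197089-23197677), with a pileup of 112.5 and a fold enrichment of 22.7. The others, 7698 bp and 10690 bp downstream and 33760 bp upstream, had fold enrichments of 5.36, 6.93 and 5.44.

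In the order of their strongest peaks, WLS (40.8) came before OLIG3 (30.1), LMX1B (24.2), TBR1 (24.2), PTF1A (22.7), EOMES (21.9), BARHL2 (17.1), LMX1A (14.1) and BARHL1 (9.22). Among these strongest peaks, the interval of the WLS fragment count, 264 to 333, overlapped that of no other member. OLIG3 reached highest of the others with 176 to 233. The peaks of highest pileup at TBR1 (266 to 335) and LMX1A (210 to 271), with lower fold enrichments of 15.8 and 13.6, did overlap the WLS interval. Below WLS, each pair of neighbours in this order had overlapping intervals, which were 153 to 206 for LMX1B, 170 to 225 for TBR1, 130 to 179 for PTF1A and 124 to 173 for EOMES. They were 139 to 190 for BARHL2, 110 to 155 for LMX1A and 103 to 148 for BARHL1. The intervals count ChIP fragments at the summit and leave out the local input. Whether the order by fold enrichment is resolved beyond counting error was therefore not tested. With CALB2 set to 0, the median over the members was 22.3, against 15.2 over all genes.

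**Figure D4:**
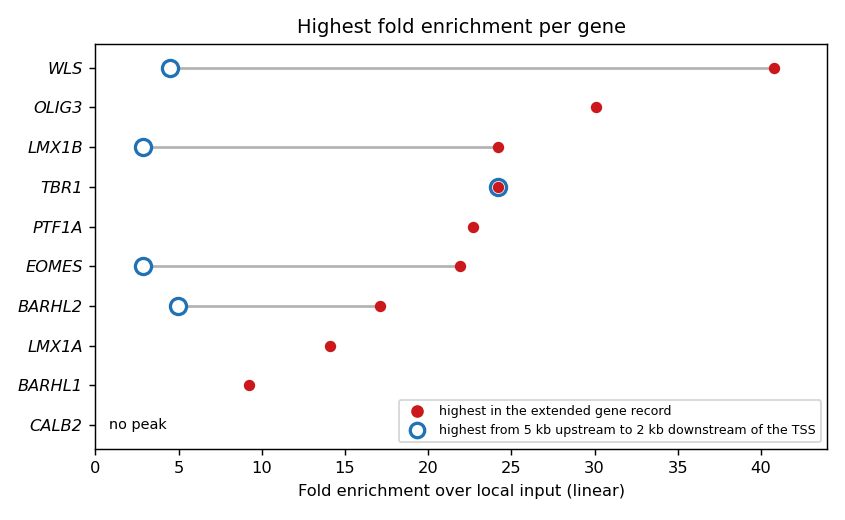
Fold enrichment (x axis, linear) of the strongest OTX2 peak in the extended gene record (filled red) and in the window near the TSS, 5 kb upstream and 2 kb downstream (open blue, where there was a peak) for each gene (rows). The 2 symbols coincide at TBR1 only, at 24.2, and are farthest apart at WLS, at 40.8 and 4.5.

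Promoter sequences of 250 bases before to 50 after a transcription start, as given by RefSeq for GRCh38.p14, were held for 8 members in 10 windows. These starts can differ from the TSS used for distances, as they did at EOMES and WLS. PTF1A and CALB2 had no entry. Summits fell in 2 of the 10 windows, those of TBR1 and the second start of WLS, and in 17.0% of 34943 promoters. The 3 promoters that show how peak and sequence met are given 5′ to 3′ in the direction of transcription, with TAAT in capitals on either strand (ATTA where it is on the opposite strand).

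TBR1 promoter, chr2:161416047-161416346, plus strand: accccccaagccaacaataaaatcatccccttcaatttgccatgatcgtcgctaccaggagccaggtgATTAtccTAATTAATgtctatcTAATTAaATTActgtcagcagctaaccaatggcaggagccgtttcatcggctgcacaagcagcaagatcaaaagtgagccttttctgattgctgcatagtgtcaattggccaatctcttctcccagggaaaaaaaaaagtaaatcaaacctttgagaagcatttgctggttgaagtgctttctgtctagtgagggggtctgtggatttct
EOMES promoter, chr3:27722274-27722573, minus strand: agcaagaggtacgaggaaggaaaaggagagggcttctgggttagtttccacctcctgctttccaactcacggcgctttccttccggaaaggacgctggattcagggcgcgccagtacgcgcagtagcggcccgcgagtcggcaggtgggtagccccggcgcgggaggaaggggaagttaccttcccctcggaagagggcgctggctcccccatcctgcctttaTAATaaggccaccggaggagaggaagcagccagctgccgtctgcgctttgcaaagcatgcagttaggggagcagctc
WLS promoter (second start), chr1:68232497-68232796, minus strand: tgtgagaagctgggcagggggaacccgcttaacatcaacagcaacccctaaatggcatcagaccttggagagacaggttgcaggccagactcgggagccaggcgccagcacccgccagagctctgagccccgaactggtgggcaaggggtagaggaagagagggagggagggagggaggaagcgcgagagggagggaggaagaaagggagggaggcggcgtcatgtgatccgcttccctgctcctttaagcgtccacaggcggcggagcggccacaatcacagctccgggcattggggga

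The TBR1 promoter lay wholly inside the strongest TBR1 peak, with the summit at base 83 of the 300 shown. Around it stood 5 places with TAAT followed by any 2 bases (TAATNN), at bases 67, 76, 80, 91 and 96, and the match TAATGT at base 80 contained the summit. The letters TAATTA read the same on both strands, so each was counted as 1 place, and the places at bases 76 and 80 and at bases 91 and 96 overlap. As many as 5 places were found in 6.84% of all promoters and in 3.05% of those with a summit. The EOMES promoter, 114 bases of which lay in the weak exonic peak, held 1 such match, TAATAA at base 224. The WLS promoter had the summit of a peak of fold enrichment 2.37 at base 22 and held no TAAT. This summit lay before the start of that promoter but 345 bp downstream of the TSS used for distances. The base composition differed as well, with 43.3% G and C in the TBR1 promoter, 61.7% in that of EOMES and 63.3% in that of WLS.

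The full letters TAATCC or TAATCT, searched on both strands, were in 0 of the 10 member promoters and in 12.8% of all promoters (17.5% of those with a summit and 11.8% of those without). TAATNN was in 4 member promoters, those of EOMES, TBR1, BARHL1 and BARHL2, and in 50.1% of all promoters, and TAATC was in that of TBR1 alone and in 19.9% of all. A match is a description of letters and not a bound site, and 8 of the 9 strongest member peaks lie outside these windows.

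Other genes of the same lineages were counted in the same way. Among 16 genes of the rhombic lip and glutamatergic lineage, all had a peak in the window, 10 had one near the TSS and 10 had one of fold enrichment 10 or more, with a median of 5.27 peaks per 100 kb. The most peaks, 23 each, were at MEIS2, a TALE homeodomain factor, and RELN, which encodes the secreted protein reelin. Among 10 genes of unipolar brush cells, all had a peak, 6 had one near the TSS and 8 had one of fold enrichment 10 or more, with a median of 4.77 per 100 kb. PLCB1, a phospholipase C gene, had the most, 56 peaks in a long window and 5.65 per 100 kb.

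Among 14 genes of the ventricular zone and GABAergic lineage, all had a peak, 7 had one near the TSS and 8 had one of fold enrichment 10 or more, with a median of 3.27 per 100 kb. NEUROG1, a proneural factor, had the most, 17 peaks or 16.7 per 100 kb. Among 10 genes of the roof plate and choroid plexus, all had a peak, 6 had one near the TSS and 9 had one of fold enrichment 10 or more, with a median of 5.68 per 100 kb and the most peaks, 16, at BMP7, a secreted signal. Beside the 57.2% and 70.0% of all genes with a peak near the TSS and with one of fold enrichment 10 or more, and beside the 5.12 peaks per 100 kb at the median gene, these lists lay on both sides. No gene of the 4 lists had 0 peaks, and CALB2 differed from them in this, while 94.1% of all genes had a peak in the window. ATOH1, the determinant of the rhombic lip lineage, named here after its value was seen, had 1 peak, 12937 bp upstream of its TSS, with a fold enrichment of 6.76.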

How the data were processed

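OTX2 ChIP-Seq and input reads of D283 tumorspheres were mapped by the authors to GRCh38 with bowtie2 2.2.4. Peaks were called by the authors with MACS2 2.1.0.20140616 on paired-end fragments, with 1 fragment kept per position and a q-value cutoff of 0.05. The deposited pileup is a signal (fragment coverage at the summit), the deposited fold enrichment is a ratio to the local input with a pseudocount of 1, and the −log10 p-value and −log10 q-value of each peak were deposited with them. The ChIP library held 84980793 fragments (61259377 kept) and the input 32292980 (22521186 kept), so the shallower input limits each ratio.

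Gene records were the GRCh38 positions kept in GENCODE release 44 for each exon, and no coordinate was converted. An overlap of 1 bp between peak and window sufficed for a count. Counting of peaks in gene windows was tested on simulated peaks, and the motif search was not part of that test. Scripts ran in Python 3.11.15 with scipy 1.17.1, numpy 2.4.6, matplotlib 3.10.9 and pandas 2.3.3. The genes and lists were chosen with earlier results of these data known. Each member was described by its strongest peak and its nearest summit, and each list by its gene of most peaks. Alternatives were stricter peaks, other windows, RefSeq records and other motif letters. Sequence outside promoters was not used here.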

Additional observations from a re-analysis of the deposited data

How the results depend on the processing

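With a −log10 q of at least 5, members with a peak near the TSS fell from 5 to 3 and the median distance of the nearest summit moved from 3.58 kb to 6680 bp. With a fold enrichment of at least 5, 57 of the 108 peaks and a median distance of 8643 bp were left. Near the TSS, 1 member then had a peak, against 38.5% of all genes, while 9 of 10 members still had a peak in the window. The number of peaks follows the window by construction, with 65 for 10 kb on each side, 171 for 100 kb and 42 for the gene record alone, where 5 members had a peak. With 100 kb, CALB2 had 1 peak. Member promoters with the motif numbered 0 for TAATCC or TAATCT, 4 for TAAT followed by any 2 bases and 1 for TAATC, the last chosen after seeing the data. RefSeq records, counting by summit, the TSS of any transcript, 1 kb on either side, nearest protein-coding TSS only (89 peaks) and removing peaks with a high local input (102 peaks) kept these summaries within 1.5 times. Of 180 values of single members, 139 kept within that factor and 41 moved beyond it. The counts of the 4 context lists under stricter peaks were also chosen after seeing the data. With either cutoff, the rhombic lip list kept 15 of 16 genes with a peak and the roof plate list 10 of 10. For a −log10 q and a fold enrichment of at least 5, the unipolar brush cell list kept 10 and 9 of 10. The ventricular zone list kept 13 and 12 of 14. Apart from the 38.5% given above, the share of all genes under the altered cutoffs and windows was not set beside the counts of members and lists. Whether a fall in a count is particular to these genes was therefore not tested.

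No paired analysis was possible because the ChIP and the input were single libraries. Leaving out a replicate was not done for the same reason. The intervals cover counting error only, and the input held fewer fragments than the ChIP library.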

Other observations

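Among the lineage genes outside the members, those with the highest fold enrichment in their window were read after their values were seen. They were NEUROG2, a proneural factor of the ventricular zone list, with 45.2, and ERBB4, a neuregulin receptor, with 42.3, both above the 40.8 of WLS. PLCB1 had 39.8, TTR, the transthyretin gene of the choroid plexus, 37.4, RELN 35.4 and MSX2, a homeobox gene of the roof plate, 34.0. ERBB4 and RELN have long windows, with 3.72 peaks per 100 kb each, whereas NEUROG2 had 11 peaks, or 10.7 per 100 kb, and its nearest summit 753 bp upstream of the TSS.

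NEUROD1, a factor of differentiating granule cells, had 17 peaks, or 15.1 per 100 kb, its nearest summit 104 bp upstream of the TSS and a highest fold enrichment of 26.2. LHX1, a LIM homeodomain factor of the GABAergic lineage, had 14.8 peaks per 100 kb and MSX2 14.1. These densities lay below the 22.8 of TBR1, while LHX2, POU4F1, LHX5, ATOH1 and CBFA2T3 had 1 peak each. The lowest density of the 4 lists, 0.494 per 100 kb, was that of CBFA2T3, a unipolar brush cell gene, with a fold enrichment of 4.48.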
